A study of Equus caballus with 6 samples.

Results

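ADAMTS4, ADAMTS1, ADAMTS5 and ADAMTS9 are secreted metalloproteases, and ACAN, VCAN and COMP are matrix proteins that such proteases cut. These 7 genes were compared in lamellar hoof tissue with laminitis and in normal lamellar tissue of the horse (Equus caballus). Of the 7 genes, 6 had probe sets that carry their symbol alone in the platform annotation, 13 of the 24016 probe sets besides the controls. They were ADAMTS4 with 1 probe set, ADAMTS1, ADAMTS5 and COMP with 2 each, and ACAN and VCAN with 3 each. ADAMTS9 was not analysed here, because no probe set carried its symbol in that annotation. The group was put together with the difference of ADAMTS4 between laminitis and normal tissue already known, so the differences below are a description of these arrays and carry no p-value for a member.

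The laminitis group held 3 samples of diseased tissue (replicates 1, 3 and 4) and the normal group 3 samples (replicates 2, 3 and 4), all from the right foot, with 1 bovine GeneChip per sample. The horse's age and breed, the way laminitis arose and whether the samples came from separate horses are not given in the sources used here, so the spread between samples may be technical. Lamellar tissue interleaves the epidermis of the hoof wall with the dermis that is tied to the coffin bone, and laminitis is the disease in which this suspension fails. Of the 8 tested keratinocyte markers, KRT5, KRT14, KRT15, SFN and PKP1 were above the median of the array on every array of both groups. ITGB4 and COL17A1 were above it on 5 arrays and DSC3 on 3. Signals are linear intensities, and the median of an array lay between 86.7 and 96.6. The number of arrays limits the precision. Horse RNA was hybridised to probes designed on bovine sequence, so a probe set that mismatches the horse transcript reads low, and signals of different probe sets were not set against each other.

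Aggrecan and versican are large chondroitin sulfate proteoglycans that bind hyaluronan and hold water in the matrix. ADAMTS4 and ADAMTS5 are the main aggrecanases of cartilage, named for the cut they make in the aggrecan core protein, and ADAMTS1 and ADAMTS9 cut versican and, less readily, aggrecan. Inflammatory cytokines such as interleukin-1 induce ADAMTS4 in cultured chondrocytes, and TIMP3 is the tissue inhibitor that blocks aggrecanases. COMP, a thrombospondin of cartilage, tendon and other dense connective tissue, binds collagens and is also an ADAMTS4 substrate.

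Of the 13 probe sets, ADAMTS4 was the protease with the groups apart and high in laminitis, while the 3 VCAN and 2 COMP probe sets had lower means in laminitis. ADAMTS4 averaged 7.24-fold higher in laminitis. The other proteases, ADAMTS1 and ADAMTS5, had overlapping groups by each of their 4 probe sets. For VCAN the geometric mean was lower in laminitis by 1.42-fold to 2.22-fold across its 3 probe sets, with overlapping groups. COMP was 2.75-fold lower by a probe set whose groups did not overlap and 1.20-fold lower by a brighter one whose groups did. ACAN was 1.20-fold lower by its bright probe set, with overlapping groups. Its 2 dim probe sets were 1.72-fold and 1.65-fold higher, the latter with groups apart. Of all tested probe sets, 7.89% had laminitis wholly above normal and 8.92% wholly below.

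**Figure D1:**
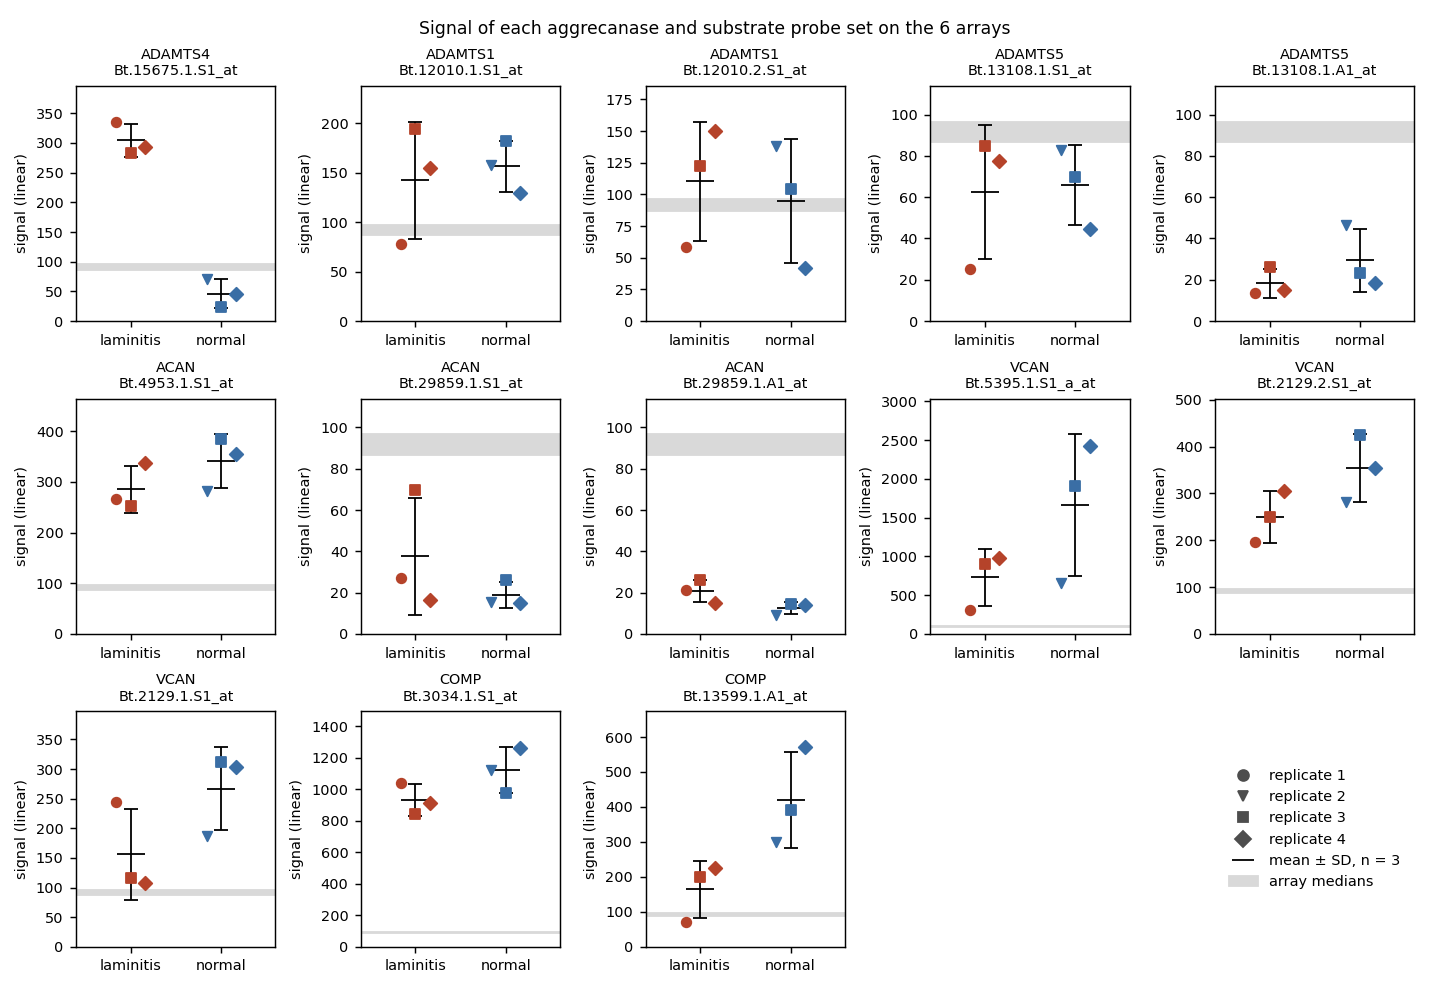
Signal on the deposited linear scale (y axis, from 0) of the 13 probe sets, a panel each, on the 3 laminitis arrays (left, red) and the 3 normal arrays (right, blue). Marker shapes give the replicate number, black bars the mean ± SD (n = 3) and the grey band the range of the array medians, 86.7 to 96.6. ADAMTS4 lay between 284 and 336 in laminitis and between 23.1 and 70.7 in normal tissue, while the groups overlapped for ADAMTS1, ADAMTS5 and VCAN.

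ADAMTS4 (probe set Bt.15675.1.S1_at) had signals of 336, 284 and 293 on laminitis replicates 1, 3 and 4, against 70.7, 23.1 and 44.9 on normal replicates 2, 3 and 4. All laminitis arrays lay above every normal array, and the laminitis values stayed within a narrow band. The mean was 304 ± 27.9 in laminitis and 46.3 ± 23.8 in normal tissue (SD, n = 3 each), a log2 difference of 2.86 ± 0.40 (SE). Every normal value lay below the median of its array, so the size of the fold depends on dim signals. With 64 added to every signal before log2 the difference was 1.76. The probe set was bright enough to test through its laminitis arrays alone, so it had to differ between the groups to be tested. Leaving out 1 array moved it between 2.43, without normal replicate 3, and 3.23, without normal replicate 2.

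ADAMTS1, which is broadly expressed and takes part in ovulation and vascular remodelling, gave no common direction. Its brighter probe set, Bt.12010.1.S1_at, had 77.7, 194 and 155 on laminitis replicates 1, 3 and 4, against 158, 182 and 130 on normal replicates 2, 3 and 4. The lowest of these 6 values was laminitis replicate 1 and the highest laminitis replicate 3, so the normal range lay inside the laminitis range. The log2 difference was -0.22 ± 0.36 (SE, n = 3 per group), and it became 0.16 without laminitis replicate 1. The other ADAMTS1 probe set, Bt.12010.2.S1_at, had 58.6, 123 and 150 in laminitis, against 138, 104 and 42.1 in normal tissue, in the same order of replicates. Its log2 difference was 0.28 ± 0.53 (SE), and it turned to -0.22 without normal replicate 4.

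ADAMTS5, the aggrecanase whose loss protects mouse cartilage in models of osteoarthritis, was below the array median on all 6 arrays by both probe sets and was not tested. Bt.13108.1.S1_at had 25.2, 84.7 and 77.7 on laminitis replicates 1, 3 and 4, against 82.9, 69.6 and 44.6 on normal replicates 2, 3 and 4, and the groups overlapped. Bt.13108.1.A1_at, built from the same sequence record, had 13.6, 26.2 and 14.9 in laminitis, against 46.5, 23.4 and 18.2 in normal tissue. The log2 differences were -0.21 ± 0.53 and -0.63 ± 0.44 (SE, from a fit without a filter on dim probe sets). The groups overlapped by both probe sets, and at these dim signals a difference in ADAMTS5 was neither shown nor excluded. On the horse assembly TB-T2T, ADAMTS1 and ADAMTS5 are neighbours with 0 protein-coding genes between them. Both showed their lowest laminitis value on replicate 1 by each of their probe sets, whereas ADAMTS4 had its highest there. That was not particular to these neighbours. VCAN by Bt.5395.1.S1_a_at and Bt.2129.2.S1_at and COMP by Bt.13599.1.A1_at were also lowest among laminitis arrays on replicate 1.

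ACAN, the aggrecan core protein, was above the array median on all 6 arrays by Bt.4953.1.S1_at only. That probe set had 266, 252 and 337 on laminitis replicates 1, 3 and 4, against 283, 385 and 356 on normal replicates 2, 3 and 4. The groups overlapped, with normal replicate 2 below laminitis replicate 4. The mean was 285 ± 45.8 in laminitis and 341 ± 52.6 in normal tissue (SD, n = 3 each), a log2 difference of -0.26 ± 0.22 (SE). The other 2 ACAN probe sets, built from a shared sequence record, were below the median on all 6 arrays and pointed the other way, at 0.78 ± 0.57 for Bt.29859.1.S1_at and 0.73 ± 0.31 for Bt.29859.1.A1_at. The values of Bt.29859.1.A1_at were 21.3, 26.0 and 15.2 in laminitis, against 9.25, 14.3 and 14.0 in normal tissue, apart but far below the array medians. Over all 24016 probe sets, dim ones included, 6.32% had laminitis wholly above normal. With 64 added, its difference was 0.15.

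VCAN, versican, the hyaluronan-binding proteoglycan of loose dermis and vessel walls, was above the array median on all 6 arrays by each of its 3 probe sets. Bt.5395.1.S1_a_at had 310, 901 and 980 on laminitis replicates 1, 3 and 4, against 652, 1901 and 2428 on normal replicates 2, 3 and 4. Normal replicates 3 and 4 lay above all laminitis arrays, but normal replicate 2 lay below laminitis replicates 3 and 4. The mean was 731 ± 366 in laminitis and 1660 ± 912 in normal tissue (SD, n = 3 each), a log2 difference of -1.15 ± 0.62 (SE). It moved between -1.73, without normal replicate 2, and -0.62, without laminitis replicate 1.

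The other VCAN probe sets were also lower in the mean of laminitis. Bt.2129.2.S1_at had 195, 249 and 306 in laminitis, against 282, 425 and 355 in normal tissue, a log2 difference of -0.51 ± 0.26 (SE). Bt.2129.1.S1_at had 244, 116 and 107 in laminitis, against 187, 311 and 303 in normal tissue, a log2 difference of -0.85 ± 0.38 (SE). The 3 probe sets did not order the arrays alike: laminitis replicate 1 was the lowest of all arrays by the first and second of them and the highest laminitis array by the third. Without normal replicate 2 the groups were apart by all 3, as they were in either direction for 25.6% of tested probe sets. Leaving out an array can only keep or add such probe sets, so nothing is read from this.

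COMP was read by 2 probe sets with different spreads. Bt.13599.1.A1_at had 72.0, 199 and 224 on laminitis replicates 1, 3 and 4, against 300, 391 and 571 on normal replicates 2, 3 and 4, and every laminitis array lay below every normal array. The mean was 165 ± 81.4 in laminitis and 420 ± 138 in normal tissue (SD, n = 3 each), a log2 difference of -1.46 ± 0.47 (SE), or -0.94 without laminitis replicate 1. Bt.3034.1.S1_at, the brighter of the COMP probe sets, had 1041, 841 and 915 in laminitis, against 1125, 974 and 1265 in normal tissue, and overlapped through laminitis replicate 1 and normal replicate 3. Its log2 difference was -0.26 ± 0.20 (SE). After quantile normalization that difference was -0.48 and its groups no longer overlapped. The size of the COMP difference therefore depended on the probe set, at -1.46 by the dimmer and -0.26 by the brighter.

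**Figure D2:**
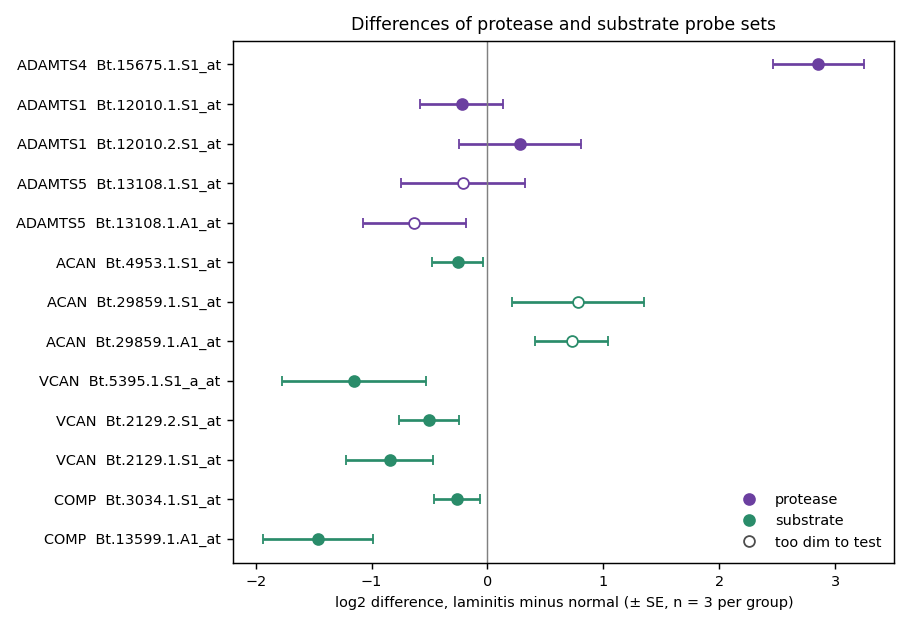
Log2 difference, laminitis minus normal (x axis), with its SE (n = 3 per group) for each probe set, proteases in purple above substrates in green, open circles for probe sets too dim to test. ADAMTS4 stands at 2.86, while the tested substrate probe sets run from -1.46 for COMP to -0.26 for ACAN and COMP.

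Across the whole array, limma with Benjamini-Hochberg adjustment over 12519 probe sets called 0 higher and 0 lower in laminitis (0% each), and so 0 of the 9 member probe sets that were bright enough to test. At an unadjusted limma p under 0.05 there were 604 probe sets higher (4.82%) and 622 lower (4.97%). The ordinary linear model also called 0. The laminitis arrays all exceeded the normal ones for 7.89% of tested probe sets and for 1 of the 9 members, ADAMTS4. The laminitis arrays all fell short of the normal ones for 8.92% of tested probe sets and for 1 of the 9, COMP. The log2 difference was below 0 for 56.3% of tested probe sets, and it was so for the 6 substrate probe sets tested and for 1 of the 3 protease probe sets tested. The median over 6151 tested genes was -0.03. Since the group was chosen on this contrast, nothing is read from these counts.

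Leaving out arrays moved the count of tested members with groups apart from 2 to as many as 6, without normal replicate 2, where 25.6% of tested probe sets were apart in either direction against 16.8% with all arrays. It was 4 without laminitis replicate 1, where 27.2% were apart, and 4 without laminitis replicate 4, where 31.9% were. Groups that are apart on all arrays stay apart when an array is left out. Over 12 alternative settings the ADAMTS1 probe sets changed sign in 2 and 1 of them, and the 5 tested substrate probe sets with overlapping groups kept a negative difference.

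**Figure D3:**
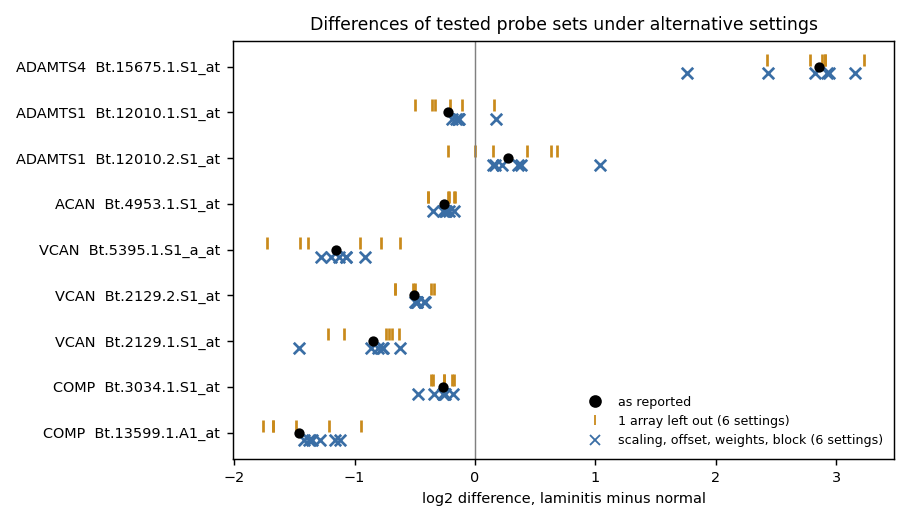
Log2 difference, laminitis minus normal (x axis), of the 9 tested probe sets as reported (black), with 1 array left out in turn (orange bars, 6 settings) and with other scalings, offsets, array weights or a replicate block (blue crosses, 6 settings). ADAMTS4 spans 1.76 to 3.23, and both ADAMTS1 probe sets cross 0.

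The rest of the protease family was thinly covered. Of 15 other ADAMTS proteases 3 had a probe set and 1 was tested, ADAMTS6, at 0.02 ± 0.22 (SE, limma adjusted p 0.985). Of 13 inhibitors, activators and clearance factors, 7 were tested, 3 with a higher and 4 with a lower difference, and 0 passed limma over all probe sets in either direction (median -0.20, against -0.03 over all tested genes). TIMP3, the aggrecanase inhibitor, had 0.01 ± 0.23. FURIN, the convertase that removes the propeptide of ADAMTS4, had 0.22 ± 0.33, while a dimmer FURIN probe set had -0.50. FN1, fibronectin, which binds ADAMTS4, had 610, 262 and 541 on laminitis replicates 1, 3 and 4, against 629, 679 and 909 on normal replicates 2, 3 and 4, at -0.72 ± 0.36 (limma adjusted p 0.563). TIMP2, a further inhibitor, had -0.34 ± 0.30 by its brightest probe set (0.26 and -0.04 by the rest), and the general protease trap A2M had -0.25 ± 0.26.

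Of 23 genes of hyaluronan and its binding partners 14 were tested, 4 higher and 10 lower, and 0 passed (median -0.08). TNFAIP6, a hyaluronan-binding protein induced by inflammation, had 317, 517 and 115 on laminitis replicates 1, 3 and 4, against 133, 111 and 96.5 on normal replicates 2, 3 and 4. Laminitis replicates 1 and 3 were high and replicate 4 lay within the normal range, at 1.24 ± 0.52 (SE, limma adjusted p 0.508). The hyaluronan receptor CD44 had 0.33 ± 0.19, with groups apart, and the hyaluronan synthase HAS2 had 0.38 ± 0.27. Other HAS2 probe sets had 0.04 ± 0.29 and, too dim to test, 2.22, and a dim TNFAIP6 probe set had 0.04. The link protein HAPLN1, which locks aggrecan to hyaluronan, was below the median on all 6 arrays. Of 23 genes of chondroitin sulfate chain synthesis 6 were tested, 1 higher and 5 lower, and 0 passed (median -0.20). B3GAT3, which completes the linker between core protein and chain, had -1.12 ± 0.44 (limma adjusted p 0.494), the chain polymerase CHPF2 had -0.51 ± 0.23, and the sulfotransferase UST had 1.14 ± 0.95. The UST value rests on a signal of 14.6 on normal replicate 3, and its other probe set had -0.54 ± 0.62.

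Of 14 relatives and partners of COMP 6 were tested, 2 higher and 4 lower, and 0 passed (median -0.28). THBS3 had -0.40 ± 0.21 with groups apart, and its dimmer probe set had -1.01 ± 0.30. THBS4, the tendon and muscle thrombospondin, had -0.42 ± 0.25. THBS1 had 0.32 ± 0.26 by its brightest probe set and -0.95 ± 0.26 by Bt.5301.2.S1_a_at, so its probe sets did not share a direction. Of 16 other aggrecanase substrates 12 were tested, 4 higher and 8 lower, and 0 passed (median -0.21). DCN, the small proteoglycan decorin, had 724, 787 and 1199 on laminitis replicates 1, 3 and 4, against 2365, 1685 and 4898 on normal replicates 2, 3 and 4, at -1.61 ± 0.42 (limma adjusted p 0.345). TNC, tenascin C, had -0.45 ± 0.23 with groups apart, while its dim probe set had 1.04 with overlapping groups.

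Of 15 ligands and transcription factors known to act on ADAMTS4 or ADAMTS1, 10 were tested, 6 higher and 4 lower, and 0 passed (median 0.01). The AP-1 subunit FOS had 2.34 ± 0.30 (limma adjusted p 0.131) by its brighter probe set, with groups apart, and -0.02 ± 0.38 by the other, with overlapping groups. The hypoxia factor HIF1A had 1.02 ± 0.26 (limma adjusted p 0.345), with groups apart. IL1B, the interleukin known to induce ADAMTS4 in chondrocytes, had 233, 217 and 194 on laminitis replicates 1, 3 and 4, against 159, 107 and 183 on normal replicates 2, 3 and 4, at 0.55 ± 0.25 (limma adjusted p 0.541). By this probe set the groups were apart. Another IL1B probe set, dim on 4 of the 6 arrays, had -0.64, with groups apart in the opposite direction. RELA, an NF-kB subunit, had -0.27 ± 0.24. Of 14 matrix metalloproteinases 4 were tested, 1 higher and 3 lower, and 0 passed (median -0.26), with MMP19 at -0.70 ± 0.41, MMP3 at -0.37 ± 0.37 and MMP16 at -0.15 ± 0.27. The dim probe sets of MMP3 and MMP16 also had negative differences, and that of MMP19 had 0.25.

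**Figure D4:**
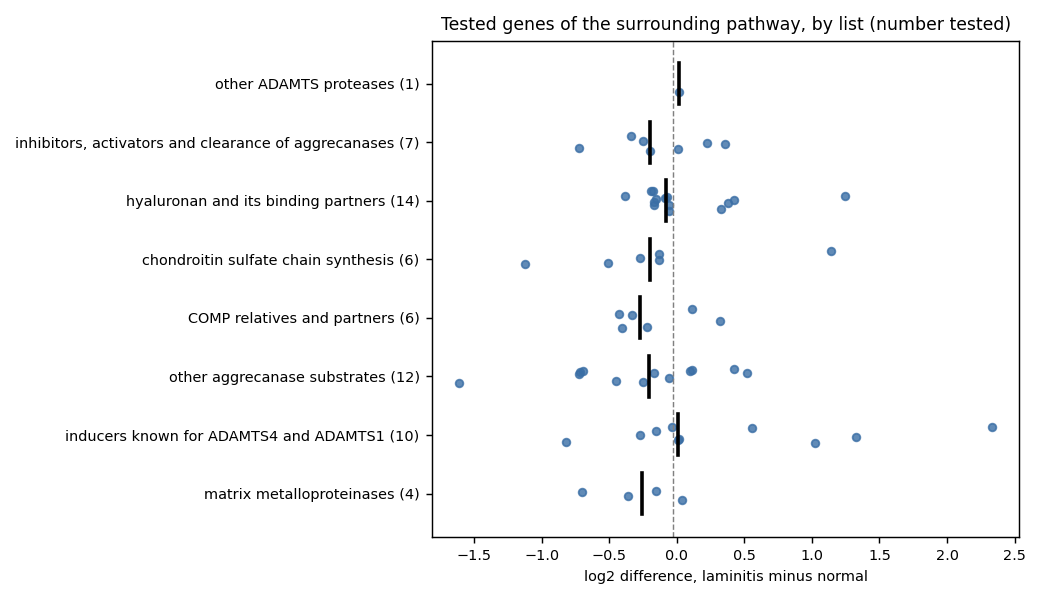
Log2 difference, laminitis minus normal (x axis), of each tested gene (points) in the lists around the aggrecanases, with each list's median (black bar), the number of genes tested and the median over all tested genes (dashed line, -0.03). FOS at 2.34 and DCN at -1.61 lie at the ends, and list medians run from -0.28 to 0.02.

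The genes whose signals ran most like ADAMTS4 over the 6 arrays, out of 6150 others, were MAPK6, CCNG1, BAMBI, CELF1 and KBTBD2, each with a Pearson correlation of 0.99 on the log2 scale. BAMBI, a decoy receptor of the TGF-beta family, had 253, 223 and 142 on laminitis replicates 1, 3 and 4, against 49.4, 16.9 and 34.4 on normal replicates 2, 3 and 4. MAPK6, an atypical MAP kinase, had 4377, 4134 and 4592 in laminitis, against 2669, 1646 and 1959 in normal tissue. Like ADAMTS4, both were lowest on normal replicate 3 and highest among normal arrays on replicate 2, an order that the choice by correlation favours. CCNG1 was also lowest on normal replicate 3, at 289, but highest among normal arrays on replicate 4 (365, against 361 on replicate 2). The genes running most opposite were SYNE4, DDIT4L, LOC518526, ZNF451 and PML, with correlations from -0.99 to -0.98. For each of these 10 genes the groups did not overlap, so the correlation holds the difference between groups as well as that within them.

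Markers of other cells were summed on each array, so the brightest probe sets weigh most in a sum. The sums of 5 lists are given here. Those of keratinocytes, endothelium, tendon, T and B cells, nerve and adipocytes are left out. In tissue, fewer cells of a type and less RNA per cell cannot be told apart. Of 9 neutrophil markers 4 were tested, and their summed signal was 1495 to 12990 in laminitis and 503 to 983 in normal tissue, with S100A8 and S100A9 higher and ELANE and MPO lower on all laminitis arrays, and LTF and CAMP below the median throughout. Of 8 monocyte and macrophage markers 4 were tested, with sums of 613 to 739 in laminitis and 468 to 520 in normal tissue, AIF1 being below the median throughout. That sum rests on CYBB, a subunit of the phagocyte oxidase, which averaged 251 on laminitis arrays and 61.7 on normal arrays. MSR1 was also higher in the mean and CD14 and CD68 lower. The part of these cells in the ADAMTS4 difference was not tested. Of 9 dermal fibroblast markers 8 were tested, 4 higher and 4 lower, with sums of 8667 to 30120 in laminitis and 8952 to 31080 in normal tissue. COL1A2 and COL1A1 weighed most in these sums, averaging 6508 and 5582 in laminitis and 5264 and 4769 in normal tissue. Among the 8, DCN was lower (-1.61) and PDGFRA higher (0.35) with groups apart. Of 8 smooth muscle and pericyte markers 4 were tested, 2 higher and 2 lower, with sums of 2991 to 4167 in laminitis and 3877 to 4987 in normal tissue. TAGLN alone had groups apart, lower in laminitis at -0.83 ± 0.34 (SE). Of 12 cartilage markers, ACAN and COMP among them, 5 were tested, 1 higher and 4 lower, with sums of 1886 to 3125 in laminitis and 2070 to 2746 in normal tissue, while COL9A1, COL11A2, HAPLN1 and CHAD were below the median throughout. The sums of these 3 lists overlapped between the groups, and the part of these cells in the VCAN and COMP differences was not tested. In these 5 lists 0 values were at 0.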

How the data were processed

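Total RNA of lamellar tissue was labelled with biotin after a round of oligo(dT)-primed amplification and hybridised to bovine GeneChips, per the labels' protocols. The deposited values are linear intensities scaled by the authors to a trimmed mean of 150.02 or 150.03 on every array (2% trimmed at each end). GCRMA is named in the submitters' processing notes, but such values are not its usual output, so the step that made them is open. Detection calls were not used here.

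Signals were taken to log2 without an offset. Probe sets above their own array's median on at least 3 of 6 arrays were tested (12519 of 24016, with 112 controls left out) with limma 3.58.1 (lmFit, then eBayes; R 4.3.3), two-sided, adjusted by Benjamini-Hochberg over all tested probe sets at a threshold of 0.05. The tested probe set of highest mean stood for a gene in the lists. Errors are limma's SE, and folds are of geometric means. Gene symbols are bovine, from GEO's platform annotation. No pair of arrays held identical values. On data simulated for this comparison over 12519 probe sets, the fit recovered 20% of probe sets changed 2-fold, 66% at 4-fold, 87.2% at 8-fold and 92% at 16-fold. The simulated noise was independent and normal with each probe set's own within-group spread, and 200 probe sets were changed, in equal numbers at each fold. Real arrays need not meet these settings. On them limma called 0, with ADAMTS4 at 7.24-fold and S100A8 at 20.7-fold, so the rates are not taken as the power of this comparison.

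Members, lists and tests were chosen with earlier results of these data known. Named genes are all members, the up to 3 of smallest p per list, and the 5 most alike and 5 most opposed to ADAMTS4. TIMP3, FURIN, HAPLN1 and RELA were named after their values were seen. Alternatives were other filters, scalings, offsets of 16 and 64, variance models, a replicate block, and leaving out each array.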

Additional observations from a re-analysis of the deposited data

How the results depend on the processing

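Over all tested probe sets, limma called 6 probe sets when every array had to be above its median, 2 when 1 array sufficed, 4 with an intensity trend and robust variance, and 0 to 2 with 1 array left out (2 without laminitis replicate 4). None of these was a probe set of an aggrecanase or substrate gene, and the other 8 settings called 0. With 64 added the log2 difference of ADAMTS4 was 1.76, and after quantile normalization that of COMP Bt.3034.1.S1_at was -0.48. With the replicate number as a block, which numbers 3 and 4 alone share between groups, VCAN Bt.2129.1.S1_at had -1.46 and limma called 0. Deviations of same-numbered arrays correlated at -0.02 and -0.03, and those of arrays with unlike numbers at -0.04 to 0.06. So few pairs cannot decide whether the numbers mark pairs, and the main fit used no pairing. The count of tested member probe sets with groups apart, an alternative chosen after the data were seen, ran from 2 to 6 with 1 array left out. The share of all tested probe sets that were apart rose as well, from 16.8% with all arrays to between 24% and 31.9%. Leaving out an array can only keep or add probe sets with groups apart, so nothing is read from that count. The cause of the other shifts was not tested. ACAN Bt.29859.1.A1_at, dim throughout, had 0.15 with 64 added. The other 144 alternative values of single probe sets and 116 of 120 alternative list medians moved by less than the spread between replicates. For a single probe set with 3 arrays per group, leaving out 1 array cannot move the difference by as much as that spread. The values with 1 array left out were therefore bound to fall within it, also where the sign changed, and no stability is read from them. The inducer median moved to 0.29 without laminitis replicate 3 and to 0.28 with every array above its median, that of COMP relatives to -0.06 with no filter, and that of matrix metalloproteinases to 0.04 with the replicate block.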

Other observations

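Probe sets of several genes around the aggrecanases were too dim to test and are given as values, chosen after they were seen. IL6, a cytokine induced by interleukin-1, had 30.6, 113 and 64.8 on laminitis replicates 1, 3 and 4, against 20.0, 7.76 and 11.3 on normal replicates 2, 3 and 4, so its groups were apart, but 1 array lay above its median. MMP14, a membrane-bound protease that activates other matrix metalloproteinases, had 55.7, 273 and 59.5 in laminitis by its probe set Bt.7046.1.S1_at, against 36.8, 26.5 and 55.0 in normal tissue, with laminitis replicate 3 alone above its array's median. The other MMP14 probe sets, also dim, had log2 differences of -0.37 and -0.59. A dim TIMP1 probe set, Bt.632.1.S1_s_at, had 308 on laminitis replicate 1, while the other laminitis arrays had 26.2 and 18.2 and the normal arrays 12.4, 14.4 and 17.4. The brighter TIMP1 probe set, Bt.632.1.S1_at, was tested and had a log2 difference of 0.36 ± 0.42 (SE, limma adjusted p 0.807), with overlapping groups. ADAMTS8, another ADAMTS protease, had 72.5, 177 and 23.5 in laminitis and 41.6, 44.6 and 166 in normal tissue, high on 1 array of each group. ADAMTS2, the procollagen N-proteinase, stayed below the median on all 6 arrays, at 12.5, 30.4 and 19.1 in laminitis and 55.3, 26.0 and 64.8 in normal tissue.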
